A study of Mus musculus with 9 samples.

Results

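The genes described here were 9 ion transport genes of the epididymal epithelium, Cftr, Scnn1a, Scnn1b, Scnn1g, Slc26a3, Slc26a6, Slc12a2, Ano1 and Clcn5. They were taken by symbol as rows of a single-cell table of 32195 genes. Cftr encodes the cyclic AMP-regulated chloride and bicarbonate channel that is mutated in cystic fibrosis, and Ano1 a calcium-activated chloride channel. Slc26a3 and Slc26a6 encode exchangers of chloride for bicarbonate, Slc12a2 the cotransporter that loads cells with sodium, potassium and chloride, and Clcn5 the chloride-proton exchanger of endosomes. Scnn1a, Scnn1b and Scnn1g encode the alpha, beta and gamma subunits of the epithelial sodium channel (ENaC).

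Spermatozoa mature and are stored in a luminal fluid that is kept acidic and low in bicarbonate, and the epithelium sets its volume and composition. Principal cells secrete chloride, bicarbonate and fluid, ENaC takes sodium out of the lumen, and clear and narrow cells acidify the fluid with the proton pump (V-ATPase). Basal cells lie at the base of the epithelium.

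Single cells were measured in 3 segments of the epididymis, caput, corpus and cauda, of C57BL/6 mice that received no treatment. At P42 (42 days of age) there was 1 pool of 5 mice, and at P56 there were 2 pools, called replicate 1 and replicate 2, from 10 mice, which gave 9 libraries. The 3 segments of a pool came from the same mice, no value belongs to a single mouse, and at P42 age and pool cannot be told apart. A UMI (unique molecular identifier) tags each captured transcript, and UMI counts are therefore counts of molecules.

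The deposited libraries held 23114756 to 50655384 UMIs. After quality control and removal of a cluster of 1050 cells led by globin genes, 41037 of 44869 barcodes were kept, with a median of 3112.5 to 7638.5 UMIs per cell across libraries. Any pair of libraries shared at most 26 barcodes. Cells were clustered without the 9 genes and the related transport genes, and the clusters were named from markers. This gave 20555 principal, 4854 clear/narrow and 3073 basal cells, besides 4134 myoid cells/fibroblasts, 2159 macrophages/monocytes, 634 endothelial cells, 208 halo/T cells, 483 sperm and 138 ciliated cells. Clusters 10 (1947 cells) and 11 (2099 cells) stayed unnamed, and cluster 7 (753 cells) carried markers of both principal and clear/narrow cells. Among the named classes, all 8 clear/narrow markers were highest in clear/narrow cells. So were 9 of 10 basal markers in basal cells and 26 of 30 principal markers in principal cells. The same lists named the clusters, so this is no separate support for the names. CPM is the UMI count scaled to the same total in every library and class. Summed clear/narrow markers were 4136 to 9463 CPM per library in clear/narrow cells, against at most 1704 in any other named class. The mixed cluster 7 was left out of this comparison. The summed principal markers also reached 208580 CPM in a class other than the principal cells. Caput clear/narrow cells were mostly cluster 4 and those of the corpus and cauda cluster 5, and caput basal cells were mostly cluster 9 and those of the corpus and cauda cluster 21.

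UMIs of each class were summed per library and given as CPM of that class. In the kept cells the sums were 1280 UMIs for Cftr, 10556 for Ano1, 9224 for Slc26a3, 281 for Slc26a6, 1405 for Slc12a2, 64891 for Clcn5, 3872 for Scnn1a, 159 for Scnn1b and 63 for Scnn1g. The small sums of Slc26a6, Scnn1b and Scnn1g limit what can be said of these genes. Of all UMIs of a gene, 71.7% of Cftr and 47.0% of Ano1 lay in principal cells, 59.6% of Clcn5 and 57.3% of Slc26a3 in clear/narrow cells, and 42.8% of Scnn1b and 41.3% of Scnn1g in basal cells. Of the Scnn1a UMIs, 35.4% lay in clear/narrow cells and 34.7% in principal cells. These shares depend on class size as well as on level. Principal cells were the largest class, with 20555 cells against 4854 clear/narrow and 3073 basal cells. The mean Ano1 level over libraries was 39.2 CPM in principal, 58.3 CPM in clear/narrow and 73.1 CPM in basal cells. For Scnn1a the means were 9.33, 51.8 and 29.0 CPM in the same order. Reads of overlapping antisense genes cannot be told apart where counting ignores strand. Cftr shares 129 exonic bases with the antisense gene Gm15592 (4 UMIs), and Ano1 overlaps the antisense gene Gm44930 (2961 UMIs) without shared exonic bases.

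Promoters are shown here for Cftr, Ano1, Slc26a3 and Clcn5, the members described at most length, as the 250 bases before the annotated start (RefSeq, build GRCm38.p6). Windows were found for 7 of the 9 genes, and none for Scnn1a and Slc12a2. Capitals mark matches on either strand, in the reading direction of the gene, to short motifs. They are the TATA box (TATAAA), the CCAAT box (CCAAT), the GC box (GGGCGG) and a forkhead motif (TGTTTNC). Also marked are an androgen response half-site (TGTTCT) and the cyclic AMP response element (TGACGTCA). Adjacent GC boxes in the Cftr window overlap each other by shared letters, and matches of different motifs did not overlap in the windows shown. The Slc26a3 and Ano1 starts lie inside the annotated interval of the gene, and Clcn5 has 2 annotated starts. The windows are chr6:18170437-18170686 (plus strand) for Cftr, chr7:144738574-144738823 (minus strand) for Ano1, chr12:31437969-31438218 (plus strand) for Slc26a3, and chrX:7319359-7319608 and chrX:7188715-7188964 (both minus strand) for the upstream and downstream starts of Clcn5.
Cftr: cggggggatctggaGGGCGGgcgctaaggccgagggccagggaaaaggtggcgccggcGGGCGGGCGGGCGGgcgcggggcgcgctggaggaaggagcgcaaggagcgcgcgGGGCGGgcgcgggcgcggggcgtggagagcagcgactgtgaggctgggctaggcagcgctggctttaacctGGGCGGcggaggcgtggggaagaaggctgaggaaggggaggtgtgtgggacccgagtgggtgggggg
Ano1: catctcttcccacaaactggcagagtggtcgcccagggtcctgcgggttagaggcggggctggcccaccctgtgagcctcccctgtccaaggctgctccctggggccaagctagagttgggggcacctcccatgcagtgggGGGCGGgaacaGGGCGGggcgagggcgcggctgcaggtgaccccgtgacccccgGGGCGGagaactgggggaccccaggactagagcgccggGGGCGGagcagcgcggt
Slc26a3: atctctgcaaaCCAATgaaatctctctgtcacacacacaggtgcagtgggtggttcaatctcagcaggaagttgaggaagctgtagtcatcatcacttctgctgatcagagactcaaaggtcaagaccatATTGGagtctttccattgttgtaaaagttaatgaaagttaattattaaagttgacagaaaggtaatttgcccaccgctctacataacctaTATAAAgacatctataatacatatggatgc
Clcn5, upstream start: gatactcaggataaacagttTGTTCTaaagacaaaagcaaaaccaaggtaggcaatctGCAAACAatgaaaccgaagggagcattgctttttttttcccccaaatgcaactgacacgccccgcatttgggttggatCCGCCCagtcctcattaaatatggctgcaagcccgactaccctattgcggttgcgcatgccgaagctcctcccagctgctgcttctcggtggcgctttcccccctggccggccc
Clcn5, downstream start: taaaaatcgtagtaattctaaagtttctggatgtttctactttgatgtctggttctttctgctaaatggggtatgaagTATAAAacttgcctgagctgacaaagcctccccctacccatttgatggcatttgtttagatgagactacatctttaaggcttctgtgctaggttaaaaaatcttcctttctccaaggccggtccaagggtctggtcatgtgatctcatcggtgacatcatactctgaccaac

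The Cftr window had a GC content of 76.4% and 6 GC boxes, and the Ano1 window 72.0% and 4 GC boxes, against a median of 52.4% over the 32851 windows of the table, of which 32.7% held a GC box. Neither window held a TATA box. The Slc26a3 window had a GC content of 38.8%, a TATA box 30 bases before the start (12.4% of all windows held this motif) and 2 CCAAT boxes (33.8% of windows). The upstream Clcn5 window held 1 forkhead motif 192 bases before the start (17.8% of windows), 1 androgen response half-site (16.1%) and 1 GC box. The downstream Clcn5 window held a TATA box 172 bases before the start. The cyclic AMP response element was found in no window of these genes and in 1.55% of all windows. A match is a description of the letters and was not tested as a binding site.

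Cftr was read almost only in the caput, which held 1265 of its 1280 UMIs. In principal cells its level was 14.9 CPM in the caput at P42 and 15.9 and 13.5 CPM in replicates 1 and 2 at P56. In the corpus it was 0.333, 0.16 and 0.0629 CPM in the same order, from 3, 3 and 1 UMIs, and in the cauda no principal cell of any library held a Cftr UMI. The caput libraries lay above all others without overlap. Caput principal cells held 911 Cftr UMIs, and their level was 92.0-fold that of the corpus (7 UMIs, 95% counting interval 44.5 to 229.6) and at least 195-fold that of the cauda, taken against 3 counts over the cauda principal cells. The segments differed by the quasi-likelihood test of edgeR, adjusted by Benjamini-Hochberg (adjusted p = 1.32e-05), and over all genes tested in principal cells 35.4% were called, that is, passed an adjusted p of 0.05 and a log2 difference of 1. Of the 7 member genes that passed the filter on low counts in principal cells, 3 were called (Cftr, Ano1 and Slc26a3), a share of the same order as this background. Cftr passed this filter through the caput libraries alone, and its call was kept under all 12 alternatives, no filter among them.

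A Cftr UMI was found in 10.8% of caput principal cells at P42 (95% interval 9.46 to 12.3%, exact Clopper-Pearson, counting error only) and in 8.93% and 8.87% in replicates 1 and 2 at P56. With every cell thinned to 1000 UMIs, the shares were 1.52%, 1.80% and 1.21%. Over all caput principal cells the share was 9.33%, 5.69% of caput endothelial cells, 5.06% of caput myoid cells/fibroblasts and 1.53% of caput macrophages/monocytes. Free RNA can give Cftr UMIs in each of these classes outside the epithelium, and its part in the shares was not tested. The median depth of macrophages/monocytes in the caput was 3628 to 4580.5 UMIs per cell by library, against 6077 to 7341.5 in caput principal cells, and at 1000 UMIs per cell 0.51% of them and 1.52% of caput principal cells held a Cftr UMI. The caput libraries held 131, 45 and 20 macrophages/monocytes at P42 and in replicates 1 and 2 at P56. The 0.51% therefore rests on very few cells.

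**Figure D1:**
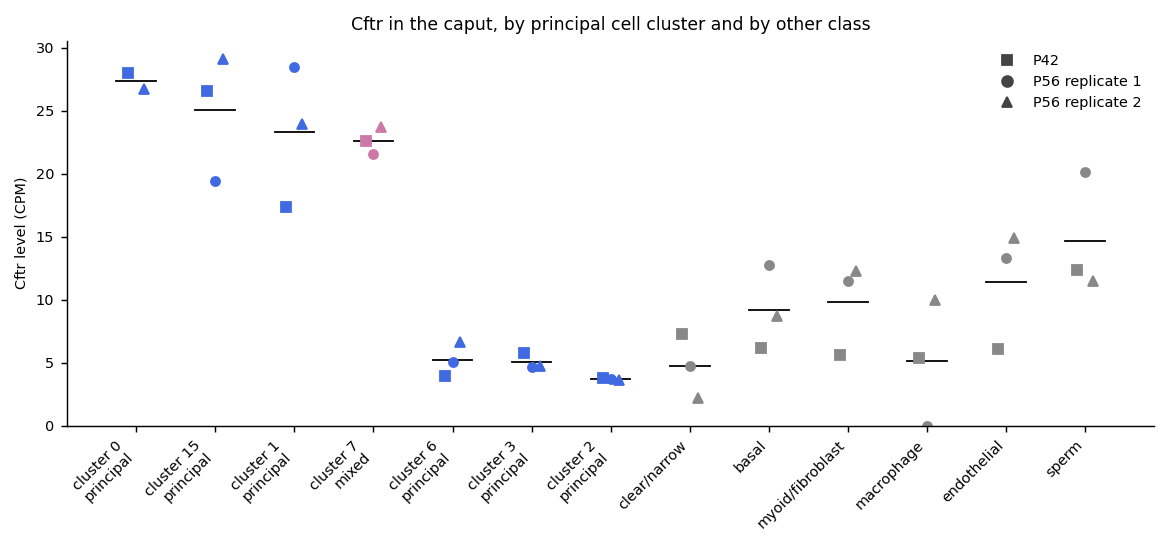
Cftr level in the caput (CPM on a linear axis), by cluster of principal cells with at least 100 caput cells, in the mixed cluster and in other classes, with 1 point per library (squares P42, circles and triangles P56 replicates 1 and 2) and a line at their mean. Clusters 0, 1 and 15 sit at 17.4 to 29.1 CPM and clusters 2, 3 and 6 at 3.59 to 6.66 CPM.

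Within the caput, principal cells were not alike. The level was 17.4, 28.5 and 24.0 CPM in cluster 1 (led by Cst12, Ntsr1 and Defb48) in the P42 library and replicates 1 and 2 at P56, and 26.6, 19.4 and 29.1 CPM in cluster 15 (led by cell cycle genes such as Cenpf and Mki67). In cluster 0 (led by Aldh1l1 and Spink4), which was almost entirely from the P42 library, it was 28.0 CPM. In contrast, the levels were 3.76, 3.68 and 3.59 CPM in cluster 2 (led by Rnase9 and Defb30), 5.80, 4.66 and 4.76 CPM in cluster 3 (led by Lypd8 and Pate6) and 3.91, 5.04 and 6.66 CPM in cluster 6 (led by Defb47 and Spink13). The lowest library of the first 3 clusters lay above the highest library of the last 3. These clusters were read from the same cells, and the difference is given as a description with no test. A cluster of 753 cells that carried markers of both principal and clear/narrow cells, nearly all of them from the caput, had 22.6, 21.5 and 23.7 CPM.

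Caput basal, clear/narrow and endothelial cells lay below the first 3 of these clusters in every library. Caput basal cells had 6.19, 12.7 and 8.67 CPM, caput clear/narrow cells 7.24, 4.76 and 2.22 CPM, and caput endothelial cells 6.11, 13.3 and 14.9 CPM. These basal and endothelial levels lay above clusters 2, 3 and 6 in every library, and the clear/narrow level lay above all of them at P42 alone. In P56 replicate 2 the endothelial level was also above that of the caput principal cells as a class (13.5 CPM). Caput ciliated cells had 9.51 CPM in P56 replicate 2 (2 UMIs), 0 UMIs in replicate 1 and 10 UMIs at P42, which put them above cluster 1 in that library, and caput sperm had 12.4, 20.1 and 11.5 CPM from 1, 5 and 14 UMIs, above cluster 15 in P56 replicate 1. Basal cells of the corpus had 1 Cftr UMI, those of the cauda had 0, and all 31 Cftr UMIs of clear/narrow cells were from the caput. The caput was called over the other segments in basal cells (adjusted p = 0.000491, edgeR, at least 21.9-fold over the cauda against 3 counts) and in clear/narrow cells (adjusted p = 0.0127, at least 24.9-fold over the cauda). As in principal cells, Cftr passed the filter on low counts through the caput libraries alone, and these calls also held with no filter. The background was 12.9% of genes called in basal and 12.6% in clear/narrow cells. The summed principal markers were also highest in the caput in both classes, at 58045 to 165299 CPM in basal cells (corpus and cauda at most 21819 CPM) and 44685 to 76615 CPM in clear/narrow cells (corpus and cauda at most 28663 CPM), and their part in these calls was not tested. In clear/narrow cells Cftr was among the genes tested in 8 alternatives, of which 6 kept the call. It was lost with DESeq2 and without P56 replicate 2 (adjusted p up to 0.526 over the alternatives). In basal cells Cftr was tested in 11 alternatives, and the call was lost without P56 replicate 1 (adjusted p = 0.0621, edgeR).

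Ano1 had the lowest level in the corpus. In principal cells it was 55.9 CPM at P42 and 25.6 and 33.7 CPM at P56 in the caput, 11.9, 4.31 and 3.71 CPM in the corpus, and 102, 49.3 and 66.1 CPM in the cauda. Every corpus library lay below every caput and cauda library. The cauda exceeded the corpus by 3.72 ± 0.24 on the log2 scale (fitted difference ± SE, adjusted p of the pair = 6.91e-05) and the caput by 1.19 ± 0.21 (adjusted p = 0.00216), and the corpus lay below the caput by a log2 difference of -2.53 ± 0.23 (adjusted p = 5.07e-05, all by edgeR's quasi-likelihood test). Both directions were the same in 3 of 3 pools, and the segment call was kept under all 12 alternatives.

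Principal clusters within a segment also differed in Ano1. Caput cluster 3 had 77.0 to 109 CPM over its 3 libraries, with a mean of 93.9 CPM, while the P42 library of cluster 0 had 35.1 CPM and the means of the caput clusters 1, 2, 6 and 15 were 26.5, 43.1, 31.8 and 28.1 CPM. Thus the cluster with the most Ano1 was among those with little Cftr, and the clusters are described here with no test. In the corpus the cluster means ranged from 3.97 CPM (cluster 13) to 19.7 CPM (cluster 26), and in the cauda they were 46.1 CPM in cluster 19 and 83.5 CPM in cluster 24. Cluster 27 held 698 cauda cells of the P42 library and 6 corpus cells, and had 105.5 CPM in that cauda library.

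Ano1 was also read in the other epithelial classes. In basal cells it was 113, 40.8 and 76.6 CPM in the caput, 103, 28.0 and 28.2 CPM in the corpus and 138, 64.5 and 66.3 CPM in the cauda. In clear/narrow cells it was 89.0, 51.0 and 62.1 CPM in the caput, 70.4, 29.8 and 16.4 CPM in the corpus and 96.9, 44.6 and 64.3 CPM in the cauda. In both classes the segments overlapped, the cauda exceeded the corpus in 3 of 3 pools, and the difference missed the threshold (log2 difference 0.94 ± 0.25 in basal cells, adjusted p = 0.0515, and 1.02 ± 0.26 in clear/narrow cells, adjusted p = 0.0562). Without the P42 pool it passed, at 1.30 in basal cells (adjusted p = 0.000519) and 1.36 in clear/narrow cells (adjusted p = 0.000159, all by edgeR). The other alternatives for this difference are not given here. Leaving out a pool also moved the number of all genes called, as given under the dependence on processing.

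The segment differences themselves were compared between classes in a model with the library as a block. The corpus-minus-caput difference of Ano1 was less negative in clear/narrow than in principal cells by 1.96 ± 0.17 on the log2 scale (adjusted p over segments = 7.15e-08, edgeR) and less negative in basal than in principal cells by 2.06 ± 0.22 (adjusted p = 2.21e-06). The background was 10.7% of genes called for clear/narrow and 9.60% for basal cells, and 2 members were called in each, Ano1 and Scnn1a, of 7 tested for clear/narrow and 9 for basal cells. The difference for Ano1 passed under all 6 alternatives in both classes.

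In the corpus Ano1 was also lower in the P56 libraries than in the P42 library. P42 had a single library per segment, so the spread is that of the P56 pairs, and age and pool cannot be told apart. The CPM values above, which carry no TMM factors, show P42 over both P56 replicates in each of the 3 epithelial classes and all 3 segments. Only the corpus differences were called. The fitted P56-minus-P42 differences were -1.07 ± 0.22 in principal cells (adjusted p = 0.0439, edgeR), -1.13 ± 0.28 in clear/narrow cells (adjusted p = 0.0479) and -1.36 ± 0.32 in basal cells (adjusted p = 0.0296). At this direction 1.54%, 0.850% and 0.421% of genes were called in these classes. With DESeq2 the basal call was lost (adjusted p = 0.0886). With TMM factors set to 1 the differences were -1.56, -1.62 and -1.87, where the medians of all genes were -0.47, -0.53 and -0.45. In the corpus libraries the median mitochondrial share of UMIs was 14.3% at P42 and 18.7% and 23.8% at P56, with a median depth of 3503.5, 4518 and 4926 UMIs per cell. Myoid and fibroblast markers in these corpus classes summed to 1222 CPM at P42 and 180 and 162 CPM at P56 in principal cells, 1974, 525 and 744 CPM in clear/narrow cells and 1639, 559 and 650 CPM in basal cells. The part of each in the change was not tested. In the caput the fitted difference was -0.61 ± 0.17 in principal cells and did not pass (adjusted p = 0.17), and in the cauda it was -0.03 ± 0.18 (adjusted p = 0.941). For all genes, the median differences with TMM factors set to 1 were -0.31, -0.19 and -0.30 in principal, clear/narrow and basal cells of the caput. In the cauda they were -0.72, -0.77 and -0.68, so the CPM values there also carry a shift of genes in general. The ages differed in their principal clusters. In the cauda 698 of 833 principal cells at P42 were in cluster 27, while those of P56 were mostly in clusters 19 and 24. In the corpus, cluster 13 held 1134 of the 1748 principal cells at P42 and cluster 14 was the largest at P56 (1259 and 1120 cells).

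**Figure D2:**
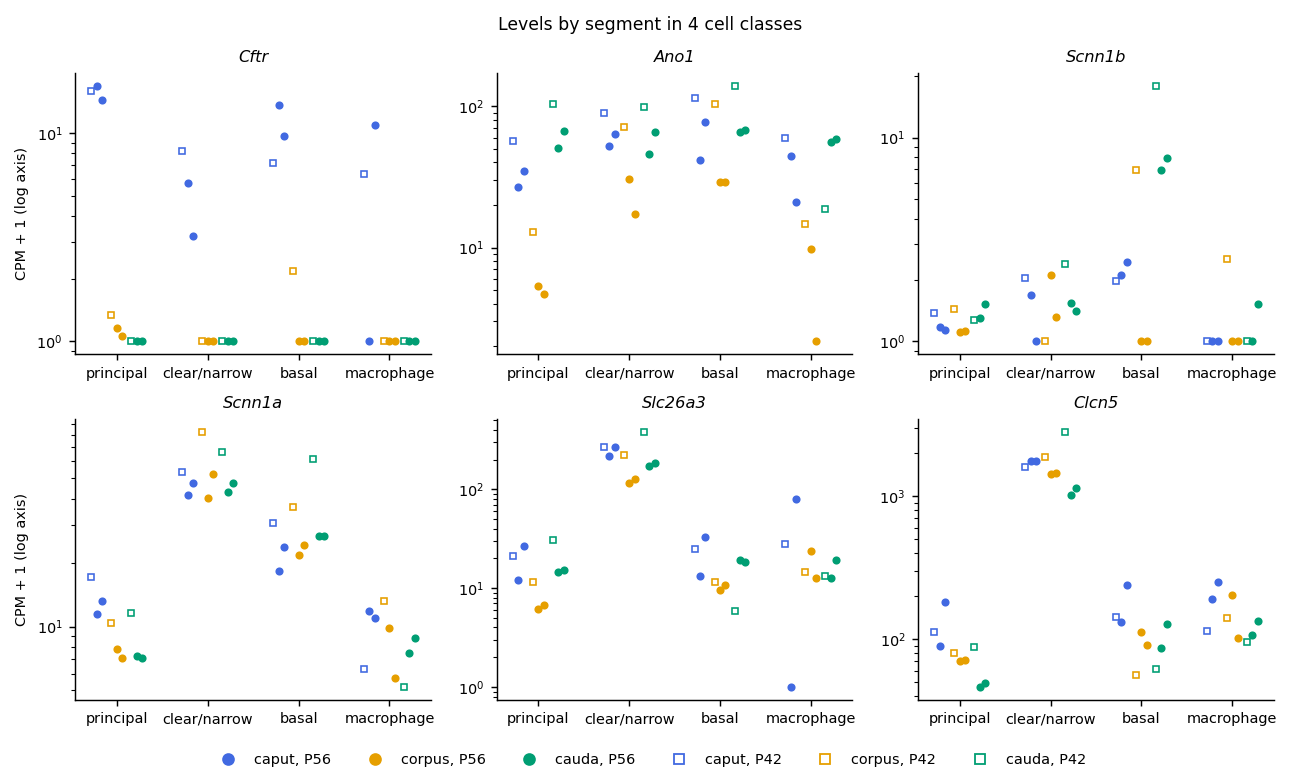
Levels of 6 member genes (CPM + 1, log axis) in 4 cell classes, with 1 point per library, colours for the caput, corpus and cauda, open squares for P42 and filled circles for P56. In principal cells Cftr lies at 13.5 to 15.9 CPM in the caput and at 0 in the cauda, and the 3 corpus libraries of Ano1 lie below all others.

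The exchangers followed. Slc26a3, which returns chloride for bicarbonate and is best known from the intestine, had its highest level in clear/narrow cells. There it was 264, 217 and 268 CPM in the caput (P42, then replicates 1 and 2 at P56), then 220, 114 and 127 CPM in the corpus, with 381, 169 and 185 CPM in the cauda. Every library lay above 100 CPM, and no library of principal or basal cells exceeded 31.8 CPM. A Slc26a3 UMI was found in 52.7% of clear/narrow cells (95% interval 51.3 to 54.1%), or 17.7% at 1000 UMIs per cell, against 7.83% of principal cells (1.41%) and 5.97% of macrophages/monocytes (1.54%), with median depths of 5088, 6276 and 4496 UMIs per cell. The principal share at 1000 UMIs per cell was thus not above that of macrophages/monocytes. Ciliated cells, found in the caput alone, had 72.0, 139 and 66.6 CPM from 36, 11 and 14 UMIs.

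In principal cells Slc26a3 was 20.2, 11.1 and 25.6 CPM in the caput, 10.4, 5.17 and 5.78 CPM in the corpus and 29.5, 13.4 and 14.4 CPM in the cauda. The corpus lay below the cauda in 3 of 3 pools without overlap, by 1.54 ± 0.23 on the log2 scale (adjusted p of the pair = 0.00243), and below the caput by 1.32 (log2 difference corpus minus caput -1.32 ± 0.22, adjusted p = 0.00190). The call was kept under all 12 alternatives. The summed clear/narrow markers in principal cells were 542 to 1064 CPM in the caput and 619 to 713 CPM in the corpus. The caput range covered that of the corpus, and the cauda had 212 to 315 CPM. Their part in the Slc26a3 levels was not tested.

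The ratio of Slc26a3 to Clcn5 varied with segment and class. Over all libraries, for 100 Clcn5 UMIs there were 13.6 Slc26a3 UMIs in clear/narrow cells, 15.7 in principal, 14.3 in basal, 11.3 in endothelial cells, 15.1 in myoid cells/fibroblasts, 17.0 in sperm, 12.6 in macrophages/monocytes, 53.0 in ciliated cells and 4.76 in halo/T cells (2 Slc26a3 UMIs). By library, in the cauda the ratio was 34.1 at P42 and 29.6 in both P56 replicates in principal cells, above the 13.5, 16.5 and 16.3 of clear/narrow cells in all 3 pools. In the corpus, principal cells had 13.3, 7.46 and 8.16, against the 11.8, 7.94 and 8.85 of clear/narrow cells, and in the caput 18.2, 12.6 and 14.0 against 16.5, 12.4 and 15.2. The part of free RNA in the levels outside clear/narrow cells was not tested. Over all libraries, Scnn1a gave 3.54 UMIs for 100 Clcn5 UMIs in clear/narrow cells and 18.4 in basal cells, and Ano1 3.92 and 51.9.

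In clear/narrow cells the segments differed in Slc26a3 with an adjusted p of 0.0454 (edgeR), with a log2 difference of 0.67 ± 0.17 between cauda and corpus that is below the limit of 1, and 5 of 12 alternatives took it past 0.05 (up to 0.463). The corpus-minus-caput difference was less negative in clear/narrow than in principal cells by 0.94 ± 0.19 (adjusted p over segments = 0.00295), and this was lost without either P56 replicate (adjusted p up to 0.0826). In basal cells the segments of Slc26a3 did not differ past the threshold (adjusted p = 0.219, largest log2 difference 1.08 between caput and corpus).

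Slc26a6, which exchanges chloride for bicarbonate and oxalate, was close to the limit of detection. In principal cells it was 1.27, 0.682 and 0.71 CPM in the caput, 1.44, 0.692 and 0.943 CPM in the corpus and 1.11, 0.293 and 0.472 CPM in the cauda. No class mean exceeded 4.12 CPM, in sperm, where 4 UMIs were read. The segments did not differ past the threshold in principal cells (adjusted p = 0.342, largest log2 difference 0.73) or in clear/narrow cells (adjusted p = 0.736).

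Slc12a2, the basolateral loader of chloride, was highest in ciliated cells, at 76.0, 25.4 and 28.5 CPM from 38, 2 and 6 UMIs. Basal cells had 22.5, 4.50 and 9.87 CPM in the caput, 17.7, 11.0 and 13.6 CPM in the corpus and 12.1, 8.46 and 8.72 CPM in the cauda. Principal cells had 2.45 to 6.59 CPM and clear/narrow cells 2.23 to 7.93 CPM over the 9 libraries. The basal level exceeded that of myoid cells/fibroblasts in 8 of 9 libraries, by 0.88 ± 0.74 (SD) on the log2(CPM + 1) scale, with an adjusted p of 0.0603 (exact sign-flip permutation test over 9 libraries). This pair is from an order of the 5 classes found in every library, a choice made after seeing the data. The segments of a pool share mice, so the 9 libraries are not independent. The segments of Slc12a2 did not differ past the threshold in principal (adjusted p = 0.394), clear/narrow (0.538) or basal cells (0.730), all by edgeR.

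Clcn5, which exchanges chloride for protons in endosomes that carry the V-ATPase, separated the clear/narrow cells from every other class. Its level there was 1597, 1747 and 1761 CPM in the caput, 1872, 1434 and 1436 CPM in the corpus and 2809, 1023 and 1134 CPM in the cauda. The lowest of these libraries lay above the highest library of any other class (723 CPM, in the mixed cluster). Principal cells had 45.3 to 182 CPM, basal cells 55.6 to 238 CPM and myoid cells/fibroblasts 51.8 to 292 CPM. A Clcn5 UMI was found in 94.3% of clear/narrow cells (95% interval 93.6 to 94.9%), or 66.2% at 1000 UMIs per cell, against 29.1% of macrophages/monocytes (8.99%) and 29.7% of principal cells (8.02%), at median depths of 5088, 4496 and 6276 UMIs per cell.

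**Figure D3:**
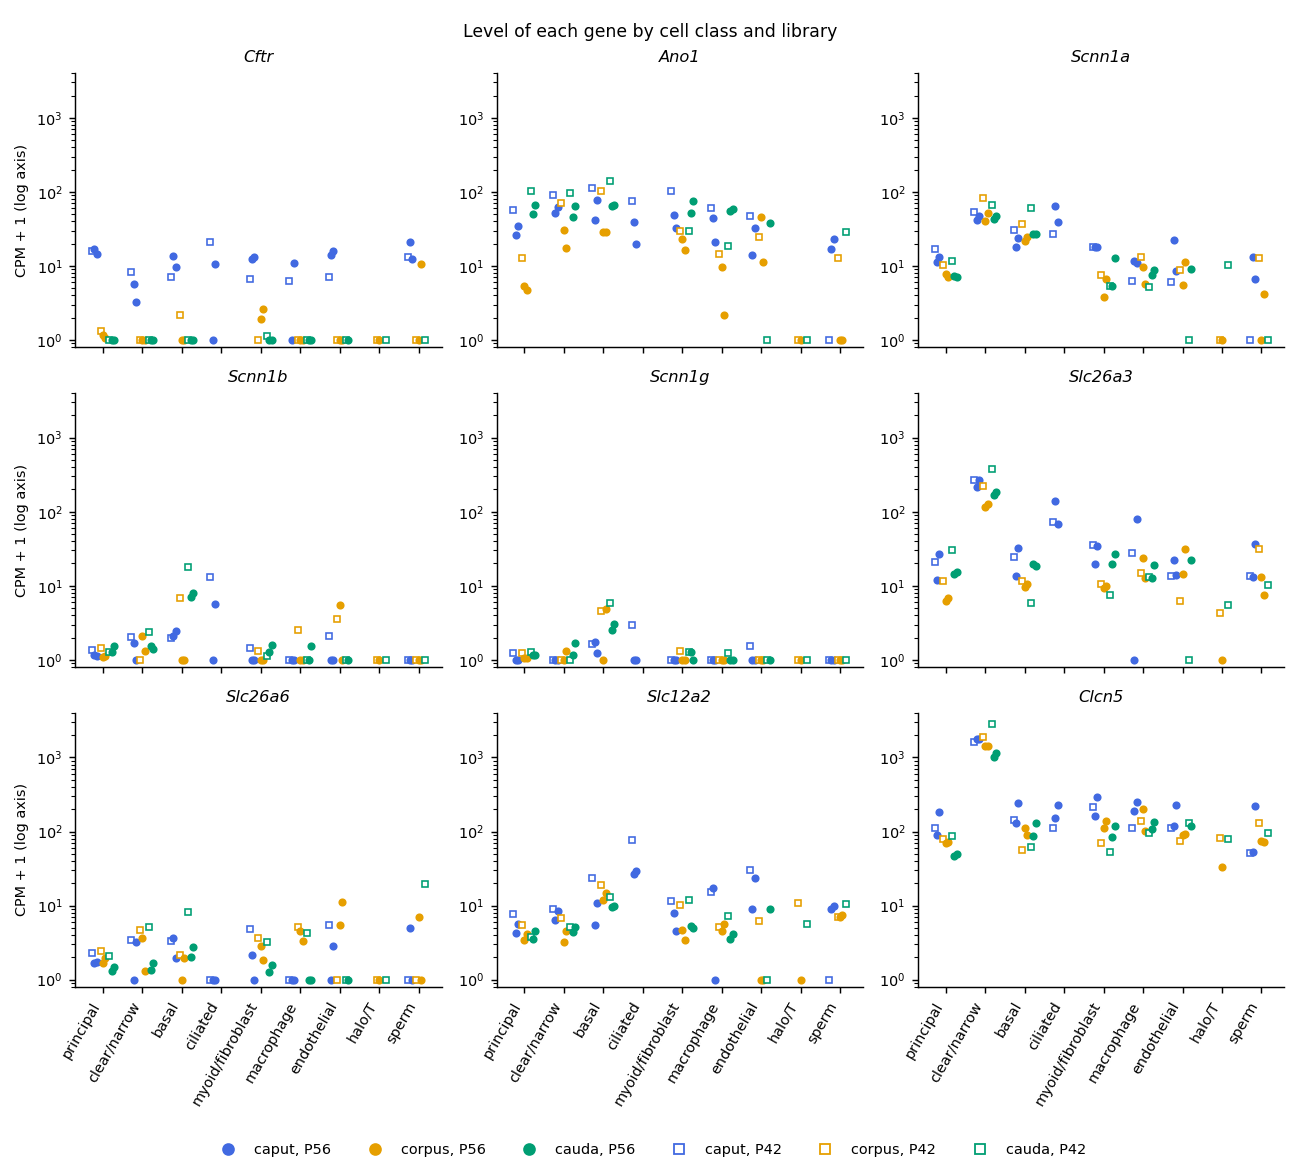
Level of each of the 9 genes (CPM + 1, log axis) by cell class, with 1 point per library, colours for the segments, open squares for P42 and filled circles for P56. Every clear/narrow library lies above 1000 CPM for Clcn5 and above 100 CPM for Slc26a3.

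The 3 segments overlapped in Clcn5 in clear/narrow cells, and the difference did not pass (log2 difference 0.17 ± 0.24 between corpus and caput, adjusted p = 0.865, edgeR). In principal cells Clcn5 was 111, 88.6 and 182 CPM in the caput, 78.7, 69.2 and 70.9 CPM in the corpus and 86.5, 45.3 and 48.6 CPM in the cauda. The caput was higher than the cauda in 3 of 3 pools without overlap, by 0.85 ± 0.21 on the log2 scale (adjusted p over segments = 0.0194, edgeR), which is below the limit of 1. This was lost without either P56 replicate and with a marker gate on each cell (adjusted p up to 0.211). The order of the Clcn5 levels in principal cells was also that of the summed clear/narrow markers in them in caput and cauda, given above, and their part was not tested. In basal cells the caput exceeded the corpus in 3 of 3 pools without overlap, by 0.87 ± 0.23 (adjusted p over segments = 0.029, edgeR), also below the limit of 1, and 5 of 12 alternatives took it past 0.05 (up to 0.435). The summed clear/narrow markers in basal cells lay the same way, at 706 to 1276 CPM in the caput and 350 to 524 CPM in the corpus, and their part was not tested.

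Between the ages Clcn5 was higher at P56 in basal cells of the corpus and cauda. In caput basal cells it was 142 CPM at P42, between the 130 and 238 CPM at P56, and the difference did not pass (0.68 ± 0.27, adjusted p = 0.199, edgeR). In the corpus it was 55.6 CPM at P42 and 111 and 89.5 CPM at P56, and in the cauda 60.5, 85.4 and 127 CPM. The fitted differences were 1.34 ± 0.34 (adjusted p = 0.0449) and 1.60 ± 0.37 (adjusted p = 0.00869, edgeR), and at this direction 1.76% and 5.94% of genes were called. The P42 sums rest on 47 and 25 UMIs. The clear/narrow markers in the same basal cells were 350 CPM at P42 and 524 and 471 CPM at P56 in the corpus, and 179, 322 and 408 CPM in the cauda, in the same direction as Clcn5. Myoid and fibroblast markers in cauda basal cells summed to 10899 CPM at P42 and to 1714 and 1643 CPM at P56. The part of either in these differences was not tested. With TMM factors set to 1 neither difference passed (log2 difference 0.84 and 0.81, adjusted p up to 0.187), where the median of all genes was -0.45 and -0.68, and the corpus difference also failed with DESeq2 (adjusted p = 0.0887).

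In clear/narrow cells of the cauda Clcn5 went the other way, from 2809 CPM at P42 to 1023 and 1134 CPM at P56, with a fitted difference of -0.61 ± 0.19 (adjusted p = 0.0372, under the limit of 1 in size). With TMM factors set to 1 the difference was -1.38, where the median of all genes was -0.77. The P42 library held 143 clear/narrow cells, 3.19% of its kept cells, against 838 and 954 cells at P56, and myoid and fibroblast markers summed to 11057 CPM in them against 1113 and 862 CPM at P56. With no filter on low counts the difference did not pass (adjusted p = 0.075).

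**Figure D4:**
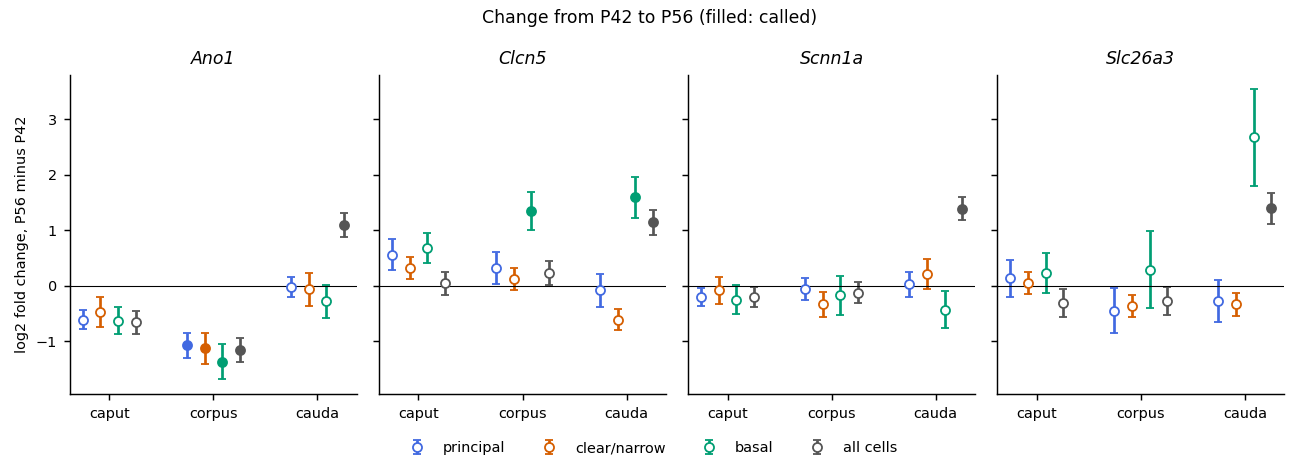
Fitted log2 difference P56 minus P42 (bars are the SE) of Ano1, Clcn5, Scnn1a and Slc26a3 within each segment, in all cells and in basal, principal and clear/narrow cells, with filled points for called differences. Ano1 in the corpus is below 0 in basal, principal and clear/narrow cells, and Clcn5 in basal cells of the corpus and cauda is above 0.

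The sodium channel subunits differed in where they were read. Scnn1a, the pore-forming alpha subunit, was 52.4, 40.8 and 46.6 CPM in caput clear/narrow cells, 81.7, 39.4 and 51.4 CPM in those of the corpus and 65.0, 42.1 and 46.6 CPM in those of the cauda. Basal cells had 29.6, 17.2 and 22.6 CPM in the caput, 35.5, 20.7 and 23.3 CPM in the corpus and 60.5, 25.6 and 25.8 CPM in the cauda. Principal cells had 16.1, 10.5 and 12.2 CPM in the caput, 9.44, 6.82 and 6.10 CPM in the corpus and 10.6, 6.27 and 6.08 CPM in the cauda. In each library the order was clear/narrow, basal, principal.

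Of clear/narrow cells, 22.0% held a Scnn1a UMI (95% interval 20.8 to 23.2%, 4.59% at 1000 UMIs per cell), against 13.9% of basal cells (2.7%), 5.95% of principal cells (0.891%) and 3.43% of macrophages/monocytes (0.699%). The median depths were 5088, 5885, 6276 and 4496 UMIs per cell. In principal cells the caput was above the corpus in 3 of 3 pools without overlap, by 0.69 ± 0.15 on the log2 scale (adjusted p over segments = 0.00955, edgeR, below the limit of 1). This was lost without either P56 replicate (adjusted p up to 0.13). In clear/narrow cells the corpus had the higher fitted level, by 0.55 ± 0.18, without passing (adjusted p = 0.112).

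The difference between classes in these segment differences of Scnn1a was called. Corpus minus caput was greater in clear/narrow than in principal cells by 1.33 ± 0.20 (adjusted p over segments = 0.000283), and cauda minus caput was greater in basal than in principal cells by 1.23 ± 0.21 (adjusted p = 0.00147, both by edgeR). The call in clear/narrow cells was lost without P56 replicate 2 (adjusted p = 0.0541), and that in basal cells without either P56 replicate (adjusted p up to 0.0827).

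Scnn1b, the beta subunit, was read in basal cells at 0.977, 1.12 and 1.44 CPM in the caput, 5.92, 0 and 0 CPM in the corpus and 16.9, 5.97 and 6.98 CPM in the cauda. These values rest on 12, 5 and 51 UMIs over the segments. The 3 cauda libraries lay above the 3 caput libraries, by a fitted log2 difference of 3.02 ± 0.62 (adjusted p over segments = 0.00848, edgeR) and no corpus library lay inside the range of either segment, with 1 above the caput and 2 at 0. From the summed UMIs, the caput level was 0.174 of the cauda level (95% counting interval 0.0842 to 0.33). Of the 8 members tested in basal cells, Scnn1b and Cftr were called, against 12.9% of all genes. Scnn1b could not pass the filter on low counts without the cauda libraries, and its call also held with no filter. The Scnn1b call was lost without either P56 replicate (adjusted p up to 0.146).

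Outside basal cells Scnn1b was sparse, with a mean of 0.273 CPM in principal and 0.607 CPM in clear/narrow cells over 9 libraries. Ciliated cells had 12.0, 0 and 4.76 CPM from 7 UMIs. Scnn1g, the gamma subunit, was 0.651, 0.749 and 0.241 CPM in caput basal cells, 3.55, 0 and 3.89 CPM in corpus basal cells and 4.84, 1.49 and 2.09 CPM in cauda basal cells, from 26 UMIs in all. Its cauda libraries also lay above its caput libraries, but the segment test did not pass (adjusted p = 0.136, edgeR). Scnn1b and Scnn1g were below the filter on low counts in principal and clear/narrow cells and were not tested there.

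Classes were ordered by mean level, and neighbours in that order were compared over libraries by an exact two-sided sign-flip permutation test of log2(CPM + 1). The 9 libraries come from 3 pools whose segments share mice and are not independent, and with the pools as units the smallest p would be 0.25, so no pair could pass. Over all 9 named classes, 0 of 71 pairs passed after Benjamini-Hochberg adjustment, 3 had an unadjusted p under 0.05, and 25 pairs were found in too few libraries to pass. With the 5 classes that had at least 10 cells in every library, a choice made after seeing the data, 6 of 36 pairs passed, each with an adjusted p of 0.0469, and 8 had an unadjusted p under 0.05. Clear/narrow cells exceeded the next class, macrophages/monocytes, in Clcn5 (3.49 ± 0.65, SD, on this scale) and Slc26a3 (3.79 ± 1.74) in 9 of 9 libraries. For Scnn1a, clear/narrow cells exceeded basal cells in 9 of 9 libraries (0.87 ± 0.34) and basal cells exceeded myoid cells/fibroblasts in 8 of 9 (1.63 ± 1.15). Basal cells exceeded principal cells in Scnn1g in 8 of 9 libraries (1.14 ± 0.84), and clear/narrow exceeded principal cells in Slc12a2 in 8 of 9 by a small amount (0.30 ± 0.22). Basal and clear/narrow cells did not differ past the threshold in Ano1 (0.29 ± 0.34, adjusted p = 0.211), nor in Scnn1b (1.17 ± 1.51, adjusted p = 0.25). No pair of classes passed for Cftr. Its UMIs outside the caput were few or none, so sign flips in those libraries changed little, and the test could not decide between classes.

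Summed over all cells, a level depends on the number of cells of each class as well as on the level within them. Over all cells 24.5% of genes were called between segments, and of the 9 members Cftr (adjusted p = 0.000122) and Ano1 (cauda over corpus 2.38 ± 0.47, adjusted p = 0.0213) were called. Ano1 was 68.7, 28.5 and 39.2 CPM in the caput, 26.8, 8.98 and 6.55 CPM in the corpus and 47.0, 51.0 and 67.7 CPM in the cauda. The Ano1 call over all cells was lost without either P56 replicate (adjusted p up to 0.243).

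The ages differed most in the cauda when all cells were summed. There 4 members were higher at P56 and 1 was lower, against 12.9% and 19.3% of all genes. Scnn1a was 10.1 CPM at P42 and 14.8 and 16.4 CPM at P56 (fitted log2 difference 1.39 ± 0.20, adjusted p = 0.00103), Slc26a3 28.2, 39.4 and 48.3 CPM (1.39 ± 0.27, adjusted p = 0.00421), Clcn5 185, 214 and 271 CPM (1.15 ± 0.22, adjusted p = 0.00419) and Ano1 47.0, 51.0 and 67.7 CPM (1.09 ± 0.22, adjusted p = 0.00492). Slc26a6 was 2.61, 0.364 and 0.568 CPM (-1.71 ± 0.44, adjusted p = 0.0141), a call that was lost with DESeq2 (adjusted p = 0.0671). For each of the first 4 genes both P56 libraries lay above the P42 library, and with TMM factors set to 1, where the median of all genes was -0.82, Scnn1a alone of these 4 passed the adjusted p (0.0495), at a log2 difference of 0.63, below the limit of 1. Within principal and clear/narrow cells of the cauda the fitted differences of these 4 genes were -0.61 to 0.22, and the lowest, Clcn5 in clear/narrow cells, passed the adjusted p (0.0372, edgeR) below the limit of 1. In basal cells Clcn5 was called higher at P56, as given above, Slc26a3 was at 2.67 ± 0.87 without passing (adjusted p = 0.0548), and Scnn1a and Ano1 were at -0.43 and -0.28. The median depth of the cauda libraries was 3112.5 UMIs per cell at P42 and 6426 and 7638.5 at P56, and the median mitochondrial share was 10.8%, 17.2% and 14.2%. The part of either in the cauda differences, in all cells and in single classes, was not tested. In the P42 cauda 3.19% of kept cells were clear/narrow, 18.6% principal and 30.1% myoid cells/fibroblasts, against 17.3 and 19.7%, 43.4 and 45.2%, and 9.88 and 8.34% at P56. Unnamed cells were 24.4% of the cauda library at P42 and 12.6 and 13.4% at P56. In the corpus, Ano1 was lower at P56 (-1.15 ± 0.22, adjusted p = 0.0129), where 7.80% of genes were called lower.

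Other genes of the same pathways were read from lists of transport genes. In principal cells 9 of 21 tested CFTR partners were called between segments, where 35.4% of all genes were called. They had a median largest log2 difference of 0.58 against 0.90 over all genes. The largest were Prkar2b, a regulatory subunit of protein kinase A (4.53, corpus over caput), Pdzk1, a scaffold protein (4.27, caput over cauda), and Slc9a3r1, the scaffold NHERF1 (3.79, cauda over caput). Of the ENaC regulators 9 of 17 were called, with a median of 1.06. These were led by the protease inhibitor Serpine2 (6.78, cauda over caput), the kinase Sgk1 (3.12, cauda over caput) and Hsd11b2, which inactivates glucocorticoids (2.84, caput over corpus).

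The counts that follow stand against the same 35.4% of all genes in principal cells. Among bicarbonate carriers of the SLC4 family 4 of 7 were called, with the sodium-bicarbonate cotransporter Slc4a4 (6.01, caput over corpus) first, followed by Slc4a5 (2.00, cauda over caput) and Slc4a8 (1.43, corpus over caput). All 3 other SLC26 genes tested were called, namely Slc26a7 (2.10, cauda over corpus), Slc26a11 (1.74, caput over corpus) and the sulfate transporter Slc26a2 (1.57, cauda over caput). Of the sodium-proton exchangers 5 of 7 were called, with Slc9a3 first (7.31, cauda over caput). Among other chloride channels 13 of 30 were called, with Ano3 (5.39, caput over cauda), Clic3 (3.70, cauda over caput) and Ttyh1 (3.10, caput over cauda) first. Of the cotransporters and the WNK and SPAK kinases 4 of 14 were called (Slc12a5 2.93 and Wnk4 2.12, corpus over caput, and Wnk3 1.87, caput over cauda), and of the sodium pump and potassium channel genes 6 of 15, with Kcnj16 (5.30, corpus over cauda), Fxyd4 (3.63, cauda over caput) and Kcne3 (3.20, corpus over cauda) first. The highest adjusted p among the genes named here was 0.0369, for Wnk3 (edgeR).

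In clear/narrow cells 3 of 17 CFTR partners, 3 of 17 ENaC regulators, 2 of 6 SLC4 carriers and 4 of 22 other chloride channels were called, with 4 of 14 sodium pump and potassium channel genes, 3 of 6 sodium-proton exchangers, 1 of 2 other SLC26 genes and 2 of 10 cotransporters and WNK and SPAK kinases. In basal cells the counts were 2 of 16, 3 of 16, 2 of 7 and 4 of 22 for the first 4 lists, then 6 of 15 sodium pump and potassium channel genes and 2 of 5 sodium-proton exchangers. There 0 of 3 other SLC26 genes and 0 of 11 cotransporters and kinases were called by edgeR, with an unadjusted p under 0.05 for 1 and 2 of them. Across all genes the shares were 12.6% and 12.9%, as above.

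The genes whose levels ran most like a member were taken over 27 sums (principal, clear/narrow and basal cells in each of 9 libraries) from 7305 genes of at least 10 CPM, by Pearson's r of log2(CPM + 1), as a description. The sums of a library share its depth and its free RNA. Nearest to Cftr were Pate10 (r = 0.983), Gm13575 (0.983) and Obp2a (0.982), and nearest to Clcn5 were 2610016A17Rik (0.992), Slco1a5 (0.987) and Pla2r1 (0.985). Nearest to Slc26a3 were Got1 (0.974), Cd24a (0.971) and Atp6v1e1, a subunit of the V-ATPase (0.964), and nearest to Scnn1a were Cd200 (0.966), Aplp2 (0.959) and Blnk (0.953). Slc12a2 (Eif6, 0.910) and Ano1 (Vangl1, 0.863) had no gene as close.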

How the data were processed

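Single-cell libraries were made by the authors from the caput, corpus and cauda, and per the labels' processing notes reads were mapped to GRCm38.p6 with STAR 2.7.3a and collapsed with UMI-tools. The deposited values are UMI counts per gene and barcode, not normalized, and whether counting used strand is not given in the sources used here. Barcodes with 300 to 4000 genes, at most 20000 UMIs and under 50% mitochondrial UMIs were kept. Cells were clustered with scanpy 1.11.5 (3000 variable genes, 50 components, 20 neighbours, Leiden resolution 1) without 152 listed transport genes, after centring by library. Scrublet marked 6 cells (0.0146%), too few to be taken as working, and doublets were not removed.

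Counts were summed per library and class and tested with edgeR 4.0.16 (quasi-likelihood F test, TMM, pool as block, Benjamini-Hochberg adjustment over all genes, R 4.3.3). A gene was called at an adjusted p under 0.05 and a log2 difference of at least 1. Ages were compared within a segment without the block. Intervals (95%) cover counting error only. The block rests on the segments of a pool sharing mice. Deviations of libraries of the same pool correlated at 0.132 to 0.719 over all cells (9 of 9 pairs above 0.1) and at 0.0346 to 0.543 in principal cells (8 of 9). Those of different pools correlated at -0.641 to 0.492 over all cells and at -0.474 to 0.352 in principal cells (4 of 18 pairs above 0.1 in each). Libraries of a pool also share their age, and every pair of different pools above 0.1 was between the P56 replicates. Among P56 libraries, pairs of the same pool and of different pools overlapped. Deviations were taken from the mean of each segment's libraries, which by itself pulls values between pools below 0. The scripts were tested on simulated data.

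The genes and lists were chosen with earlier results of these data known. All 9 members are named, with up to 3 genes of each list with the largest differences among those called, and the 3 genes most like each member. Some genes that this rule picks are not reported here. The alternatives tried were DESeq2 1.42.0, no block, no filter on low counts, TMM factors set to 1, mitochondrial genes left out, each pool left out, a marker gate, no high Scrublet scores, clusters without centring and resolution 2.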

Additional observations from a re-analysis of the deposited data

Results flagged for a closer look

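The segments differed in another way in clear/narrow than in principal cells, by a test of the difference itself (edgeR's quasi-likelihood test, library as block, Benjamini-Hochberg adjustment). The largest difference between the segment contrasts was 2.77 on the log2 scale for Ano1 (adjusted p = 7.15e-08), 1.33 for Scnn1a (0.000283), 0.98 for Clcn5 (0.00637) and 0.94 for Slc26a3 (0.00295). That of Clcn5 was lost without either P56 replicate and with a marker gate (adjusted p up to 0.275). Basal cells differed from principal cells by 2.86 for Ano1 (adjusted p = 2.21e-06) and 1.23 for Scnn1a (0.00147).

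In the sums over all cells, 3 genes were higher in both P56 libraries than at P42 in the cauda and lower in both in the caput and the corpus. The difference between the changes was 1.59 (cauda against caput) and 1.52 (cauda against corpus) on the log2 scale for Scnn1a, 1.70 and 1.67 for Slc26a3, and 1.75 and 2.25 for Ano1. These differences were not tested, and P42 had 1 library per segment. Clear/narrow cells were 3.19% of kept cells in the cauda at P42 and 17.3 and 19.7% at P56. Their shares in the same order were 14.1, 6.33 and 5.47% in the caput and 12.3, 14.3 and 13.8% in the corpus. The part of the class shares in these changes was not tested. Groups of 1 or 2 libraries are too small to look for a library far from the rest.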

How the results depend on the processing

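Of 226 alternatives over the 30 member results past the threshold, 39 took the adjusted p out of it. The other 187 kept it or gave no p, as did the age fits without a P56 replicate, and are not a count of results kept. With no replicate block, the genes called between segments fell to 1003 in basal cells from 1550, and were 5117 in principal, 1064 in clear/narrow and 3319 in all cells. No filter on low counts gave 2376 in clear/narrow cells (1495 with it). In basal cells clusters without centring gave 2567 and resolution 2 gave 1007. Leaving out 1 pool gave 3070 to 6832 genes in principal, 343 to 2329 in clear/narrow, 493 to 2380 in basal and 609 to 7439 in all cells, and for the differences between classes 605 to 1883 (clear/narrow) and 395 to 2138 (basal against principal). Between the ages, TMM factors set to 1 gave 5912 genes in principal (3145 with TMM), 4820 in clear/narrow (2222) and 3267 in basal cells (1930), no filter gave 5166 in principal, and DESeq2 gave 1105 in clear/narrow and 850 in basal cells. The level order gave 6 pairs with 5 classes and 0 with 9. The share of clear/narrow cells with a Slc26a3 UMI was 52.7%, and 17.7% at 1000 UMIs per cell. Differences that did not pass turned direction for Slc12a2 in principal cells with a marker gate (caput minus corpus -0.0875), Clcn5 in clear/narrow cells with TMM factors set to 1 (corpus minus caput -0.15) and Slc12a2 in basal cells without centring (corpus minus caput -0.0198). The cause was not tested. Small UMI sums limit Slc26a6, Scnn1b and Scnn1g.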
